A study of Mus musculus with 8 samples.

Results

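The 10 genes described here encode red cell transcription factors (Klf1, Gata1), the erythropoietin receptor (Epor), membrane proteins (Aqp1, Ermap, Rhag, Slc40a1), carbonic anhydrases (Car1, Car2) and the first enzyme of haem synthesis in red cells (Alas2). They were measured in splenic T cell preparations, and several were chosen by their signals, which were high on the 0 h arrays and low on the later ones. All 11 probe sets that map to 1 of the 10 were taken, from an array that names 12393 genes. The fall from 0 h therefore partly defined the list and is given as a description with no test, while the rule does not name the difference between genotypes.

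The cells came from magnetic sorting (pan-T kit, AutoMACS) of spleens of wild-type and Gfi1-knockout mice of the C57Bl/6 strain. One array was hybridised for each of 2 genotypes at 0, 4, 8 and 24 h, which gave 8 Affymetrix MOE430A_2.0 arrays. The 0 h cells were untreated. The others were cultured with antibodies against CD3, a signalling part of the T cell receptor, and CD28, its costimulatory receptor, at 2 µg of antibody per ml. The labels give 1 source number per genotype and do not say how many mice it stands for or which part of Gfi1 was removed. No array holds cells cultured for the same time without antibodies, so the effects of culture and of the antibodies cannot be told apart. With 1 array per genotype and time, no difference has a replicate check. The knockout and wild-type arrays are named by their labels, which the Gfi1 probe set could not check because its place relative to the deletion is not stated.

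Red cells arise from progenitors in which the zinc finger factors Gata1 and Klf1 switch on the genes for globin, haem synthesis and the red cell membrane. Erythropoietin, acting through its receptor, keeps these progenitors alive. In mice the spleen is a site of red cell formation as well as a lymphoid organ, and its red pulp macrophages take up old red cells and release their iron through Slc40a1. Gata1 binds short sites built on the letters GATA, and Klf1 binds sites that contain CACCC.

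The stretch of 100 bases before the start of each gene is shown because the members were low together after 0 h and Gata1 and Klf1 are themselves members. The RefSeq table (GRCm38.p6) held 7 of the 10, and Car1, Car2 and Slc40a1 had no entry. Each is printed 5′ to 3′ on the strand of its gene, and capitals mark a match, on either strand, to any of 4 motifs. The motifs are AGATAA and its variant AGATAG, together with TGATAA and the variant TGATAG.
Klf1, chr8:84901882-84901981, plus strand: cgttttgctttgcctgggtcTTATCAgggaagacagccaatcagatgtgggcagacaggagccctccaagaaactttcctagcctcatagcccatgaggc
Gata1, chrX:7967911-7968010, minus strand: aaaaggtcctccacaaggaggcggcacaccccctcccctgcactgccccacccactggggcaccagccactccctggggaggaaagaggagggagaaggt
Epor, chr9:21963577-21963676, minus strand: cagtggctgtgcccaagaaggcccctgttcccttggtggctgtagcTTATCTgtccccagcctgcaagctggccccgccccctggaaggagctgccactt
Ermap, chr4:119189996-119190095, minus strand: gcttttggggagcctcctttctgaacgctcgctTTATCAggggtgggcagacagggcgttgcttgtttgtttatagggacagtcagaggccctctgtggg
Rhag, chr17:40811049-40811148, plus strand: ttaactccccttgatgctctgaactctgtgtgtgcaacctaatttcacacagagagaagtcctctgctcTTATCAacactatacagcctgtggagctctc
Aqp1, chr6:55336199-55336298, plus strand: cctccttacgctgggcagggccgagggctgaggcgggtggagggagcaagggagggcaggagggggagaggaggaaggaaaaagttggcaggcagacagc
Alas2, chrX:150547317-150547416, plus strand: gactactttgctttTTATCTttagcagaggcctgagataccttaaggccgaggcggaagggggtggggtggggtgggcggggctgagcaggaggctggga

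A GATA match was present in 5 of these 7 stretches, those of Klf1, Epor, Ermap, Rhag and Alas2. In each it was read on the opposite strand, as TTATCA in Klf1, Ermap and Rhag and as TTATCT in Epor and Alas2. The first base of the match lay 80 bases before the start in Klf1, 67 in Ermap, 54 in Epor, 31 in Rhag and 86 in Alas2. Of all 32851 promoter stretches of that length in the table, 10.4% held such a match. The letters CACCC were present on either strand in 4 of the 7 (Gata1, Ermap, Aqp1 and Alas2), against 27.2% of all stretches. In Ermap the match to CACCC lay 60 to 56 bases before the start, beside the GATA letters without overlapping them. A match is a run of letters and not a shown binding site.

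Signals are deposited probe set intensities. A floor was placed at 141.88, the middle of the arrays' 40th percentiles, and lower values were raised to it before taking log2, so a difference against such a value is a lower bound. Over the 8 arrays 56.6% to 61.6% of probe sets lay above the floor, the median signal ran from 224 to 305, and the ratio of 3′ to 5′ signal of Gapdh was 0.725 to 0.939. All 11 T cell markers with a probe set were above the floor on all 8 arrays, with summed signals of 29774 (knockout) and 85921 (wild type) at 0 h. The preparations also held signal of other cells, given below. In such bulk RNA fewer cells of a type and less RNA per cell cannot be told apart.

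At 0 h both arrays gave signals above the floor for 9 of the 10 genes, and by 4 h the signal of 9 was at least 2-fold lower in both genotypes. The same held for 8 genes at 8 h and 9 at 24 h. Among all 8457 tested genes the share at least 2-fold lower in both genotypes was 2.72% at 4 h, 5.29% at 8 h and 5.36% at 24 h, but the members were chosen for this fall and nothing is read from the contrast. The value nearest outside the 2-fold limit was that of Gata1 in wild type at 8 h, -0.83 on the log2 scale, and the nearest inside was that of Gata1 in the knockout at 24 h, -1.04. The pattern of each gene is shown in the plot of signals by array.

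**Figure D1:**
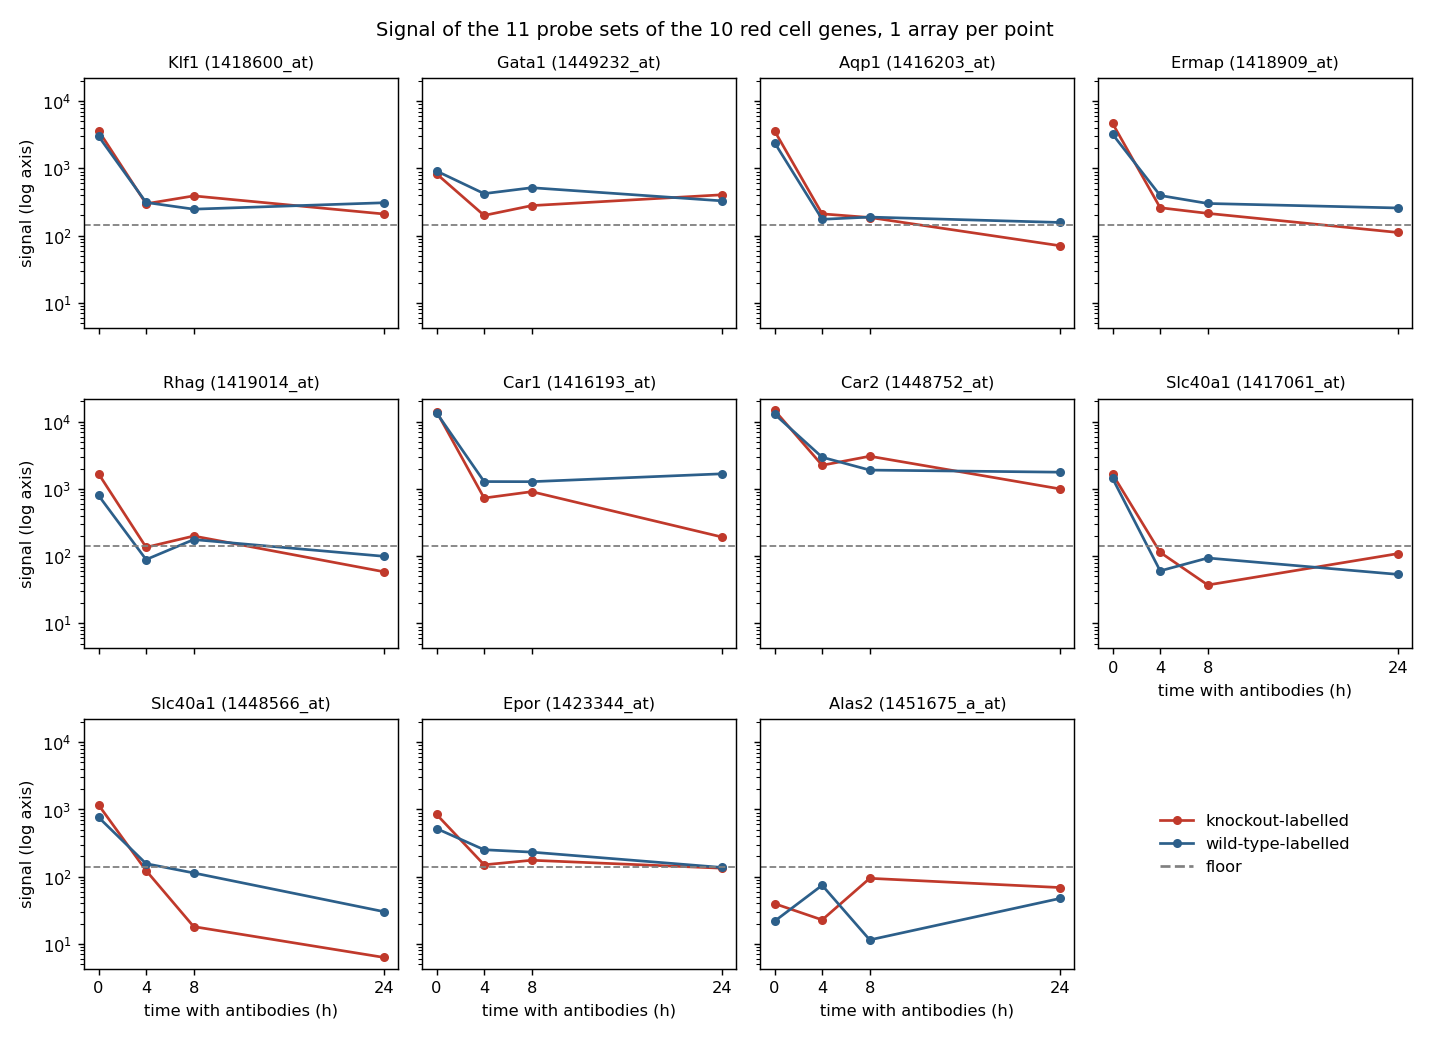
Signal of the 11 probe sets (log axis) against time with antibodies in hours, 1 array per point, knockout-labelled in red and wild-type-labelled in blue, with the floor of 141.88 dashed. All probe sets but that of Alas2 start above the floor at 0 h and are lower at 4 h, and Car1 separates by genotype at 24 h.

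Klf1, the Krüppel-like factor that drives adult globin expression, gave 3648, 298.5, 390.5 and 210.0 at 0, 4, 8 and 24 h in the knockout arrays. The wild-type arrays gave 3019, 312, 248 and 309. Both 0 h arrays stood above all 6 later ones, which stayed above the floor. The mean change at 4 h was -3.44 on the log2 scale (-3.61 in the knockout and -3.28 in wild type).

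Gata1, the GATA factor required in red cells, megakaryocytes, mast cells and eosinophils, had the smallest mean change of the 9 members at 4, 8 and 24 h (-1.59, -1.20 and -1.26). It gave 831, 200, 280 and 406 in the knockout arrays and 916, 422, 517 and 329 in wild type. The 0 h arrays were again the highest, but the later signals kept 24.1% to 48.8% of the 0 h signal in the knockout and 36.0% to 56.4% in wild type. Between 8 and 24 h Gata1 moved by 0.53 in the knockout and -0.65 in wild type. Mast cell, basophil and eosinophil markers (8 with a probe set) summed to 7059 to 8476 in the knockout arrays and 730 to 945 in the wild-type ones, and their part in the Gata1 signal was not tested.

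Epor, the receptor for erythropoietin, gave 845, 150, 176 and 134 in the knockout arrays and 521, 252, 232 and 137 in wild type. Both 24 h signals were under the floor. The 4 h change was -2.49 in the knockout and -1.05 in wild type, the widest gap between genotypes at that time among the members.

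Of the membrane proteins, the water channel Aqp1 gave 3619, 211, 186 and 70.8 in the knockout arrays and 2418, 175, 189 and 157 in wild type. Ermap, which carries the Scianna blood group in humans, gave 4670, 260, 215 and 112 in the knockout arrays. Its wild-type signals were 3225, 396, 301 and 258. Both kept at most 12.3% of the 0 h signal on every later array, and the 24 h knockout signal of each was under the floor.

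Rhag, the Rh-associated glycoprotein that carries ammonia and carbon dioxide and holds the Rh antigens in the membrane, gave 1687, 136, 200 and 58.6 in the knockout arrays. Its wild-type signals were 802, 89.1, 177 and 99.6. Only the 8 h arrays among the later ones were above the floor, so the changes of -3.57 and -2.50 at 4 h are lower bounds on the fall.

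Slc40a1, the iron exporter ferroportin, has 2 probe sets. The brighter one gave 1656, 114, 37.3 and 109 in the knockout arrays and 1435, 60.5, 94.0 and 53.6 in wild type, so that every later signal was under the floor. The other gave 1171, 123, 18.1 and 6.3, and 767, 156, 114 and 30.2. Both were high on the 0 h arrays and low on the later ones, and the brighter passed the filter on low values through the 0 h arrays alone. The other had 1 later signal above the floor (156) and also passed only through the 0 h arrays.

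Slc40a1 is also a gene of splenic macrophages, and the summed signal of markers of these cells was lower after 0 h as well. C1qa, a complement component that they make, gave 547 and 363 at 0 h (knockout, wild type) and 5.1 to 22.4 on the later arrays. Of 13 tissue macrophage markers with a probe set, 11 and 9 were above the floor at 0 h and 1 to 5 later. Their summed signal was 3744 to 4835 at 0 h and 702 to 3426 later. Some single markers rose in the knockout between 0 and 8 h. They were Vcam1 (1189 to 1402.5), Axl (460 to 921), Adgre1 (289.5 to 435) and Mertk (278 to 297). In wild type the same markers were lower at 8 h than at 0 h. C1qa, C1qc, Cd5l and Mrc1 were above the floor on the 0 h arrays alone and passed the filter only through them, so no calls are given for this list. The part of these cells in the Slc40a1 signal was not tested.

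The carbonic anhydrases interconvert carbon dioxide and bicarbonate. Car1 gave 14165, 733, 912 and 193 in the knockout arrays and 13575, 1288, 1283 and 1681 in wild type. Wild-type Car1 thus held 9.48%, 9.45% and 12.4% of its 0 h signal at 4, 8 and 24 h, against 5.17%, 6.44% and 1.36% in the knockout. Car2, which is expressed beyond red cells, gave 14788, 2250.5, 3067 and 1001 in the knockout arrays. Its wild-type signals were 12968, 2964, 1909 and 1776, above the floor throughout. Car3, the gene between Car1 and Car2 on the chromosome in the RefSeq order, was under the floor on all 8 arrays, with a highest signal of 127.

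Alas2, which starts haem synthesis in red cells, was under the floor on all 8 arrays, with signals of 11.5 to 94.7 from its 1 probe set. It was not tested, and neither its level nor a fall can be read from these data.

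The 9 members above the floor followed each other closely. Over the 8 arrays the 36 pairs correlated with a median r of 0.94, from 0.72 (Gata1 with Car2) to 0.99. These points share the arrays and the gap between the pair of 0 h arrays and the 6 later ones, for which members were chosen, so the values are a description only.

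The rule that chose the members does not use the difference between genotypes at one time, but the members were chosen with earlier results of these data known. At 0 h the knockout array was higher for 8 of the 9 members and lower for Gata1, by a median of 0.27 on the log2 scale. Rhag alone differed by at least 2-fold (1687 against 802, 1.07), followed by Epor (0.70), Aqp1 (0.58) and Ermap (0.53). Klf1 (0.27), Car2 (0.19) and Car1 (0.06) differed less. Of all tested genes 14.8% differed by at least 2-fold in either direction at 0 h, and 45.2% were higher in the knockout.

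At 4 h the order had turned for most members. The knockout was lower for 6 (Gata1 at -1.08, Car1 at -0.81, Epor at -0.74, Ermap at -0.60, Car2 at -0.40 and Klf1 at -0.06) and higher for Aqp1 (0.27), with both arrays of Rhag and Slc40a1 under the floor. Gata1 was the 1 member past 2-fold, against 18.3% of all genes. The changes from 0 h rest on the signals by which members were chosen and are a description. Set against its own 0 h array, each of the 9 had the lower change in the knockout. The gap ran from -0.21 (Slc40a1) to -1.44 (Epor), with a median of -0.87. Of all tested genes 45.3% had the lower change there, but several members were chosen for their fall and nothing is read from the contrast. For Rhag and Slc40a1 both 4 h values were the floor, so their gap repeats the 0 h difference. These counts of members were the same after quantile normalization and after scaling every array to its median, which put the share of all genes at 47.3% and 52.2%.

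At 8 h no member differed by 2-fold (17.4% of all genes did), with Gata1 at -0.88 (knockout minus wild type), Car2 at 0.68 and Klf1 at 0.66. At 24 h Car1 was the 1 member past 2-fold, against 14.2% of all genes. Its signal was 193 in the knockout against 1681 in wild type, a difference of -3.13. Between 8 and 24 h Car1 went from 912 to 193 in the knockout and from 1283 to 1681 in wild type. The 24 h differences of Ermap, Car2, Klf1 and Aqp1 were -0.86, -0.83, -0.56 and -0.15, that of Gata1 was 0.30, and Rhag, Slc40a1 and Epor were under the floor in both. Granulocyte precursor markers summed to 142533, 166279, 115304 and 5719 at 0, 4, 8 and 24 h in the knockout arrays. In wild type they summed to 15416, 11060, 4826 and 866, so the knockout sum was higher at every time and rose from 0 to 4 h. Their part in the Car1 difference was not tested. Scaling every array to its median shifted the knockout minus wild-type median of all genes by -0.20 at 24 h. All of these values are set out in the plot of genotype differences.

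**Figure D2:**
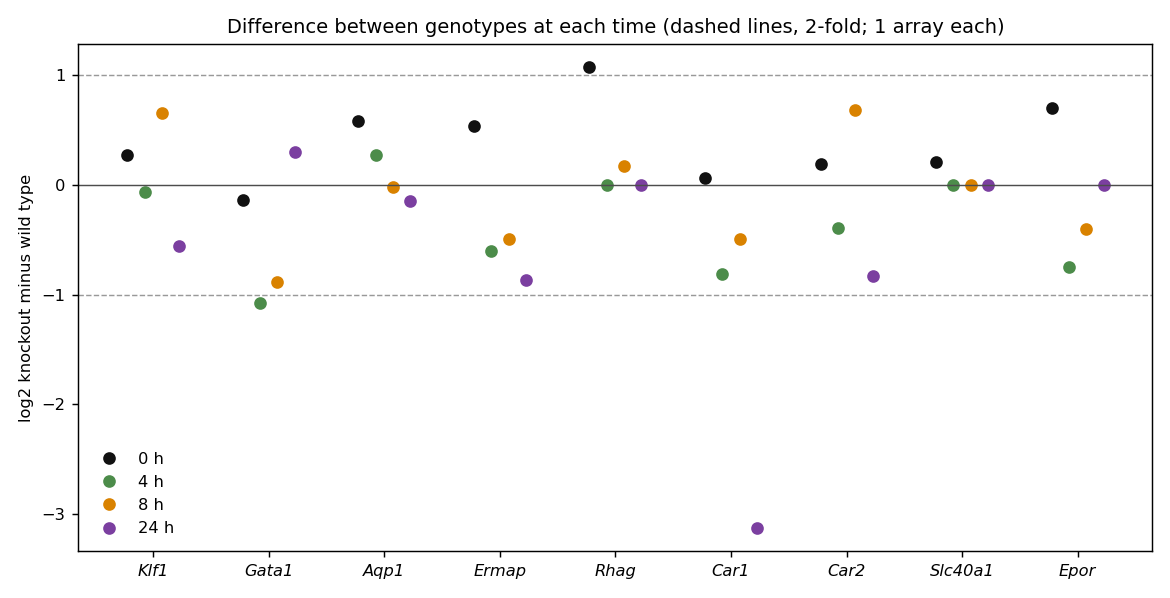
Log2 difference, knockout minus wild type, for the 9 members above the floor at 0 h, with 1 point per time and 1 array on each side of a difference. Dashed lines mark 2-fold, points at exactly 0 are pairs under the floor, and the 24 h point of Car1 lies at -3.13.

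Globin transcripts are the main product of a maturing red cell. The probe sets that list a single globin gene were at or near the floor. Among them Hba-a2 was above it on 4 arrays, with at most 234 there, and Hbb-b2 on 1. A pair of bright probe sets and a dim one, at no more than 314, list both adult alpha-globin genes, and a bright one lists 4 adult beta-globin genes, so the copies cannot be separated. These were looked at after the members' values were seen. The brighter alpha-globin probe set gave 11404, 8667, 8329 and 2462 in the knockout arrays and 6005, 4528, 2978 and 759 in wild type. The beta-globin one gave 8422, 6253, 6475 and 3629, and 2990, 3229, 1842 and 1485.

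At 4 h the 3 bright globin probe sets held 68.5% to 108% of their 0 h signal, while the 10 probe sets of the members held 4.22% to 48.4%. The highest member value was that of Epor in wild type. The lowest was that of Slc40a1 in wild type, whose 4 h signal of 60.5 was under the floor. These percents use signals that were not raised to the floor. Several members were chosen for their fall and the globin probe sets were not, so nothing is read from the contrast. In limma the alpha-globin probe sets did not pass at 4 h (-0.40 and -0.43, adjusted p = 0.568 and 0.561) and fell by 24 h, with -2.60 and -2.75 (SE 0.27 and 0.28, adjusted p = 0.00904 for both, lower in both genotypes). The beta-globin one stood at -1.11 at 24 h (adjusted p = 0.0697). All 3 were higher in the knockout array at every time, by 0.93 to 1.93, also at 24 h when 5 of the 9 members were lower there.

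**Figure D3:**
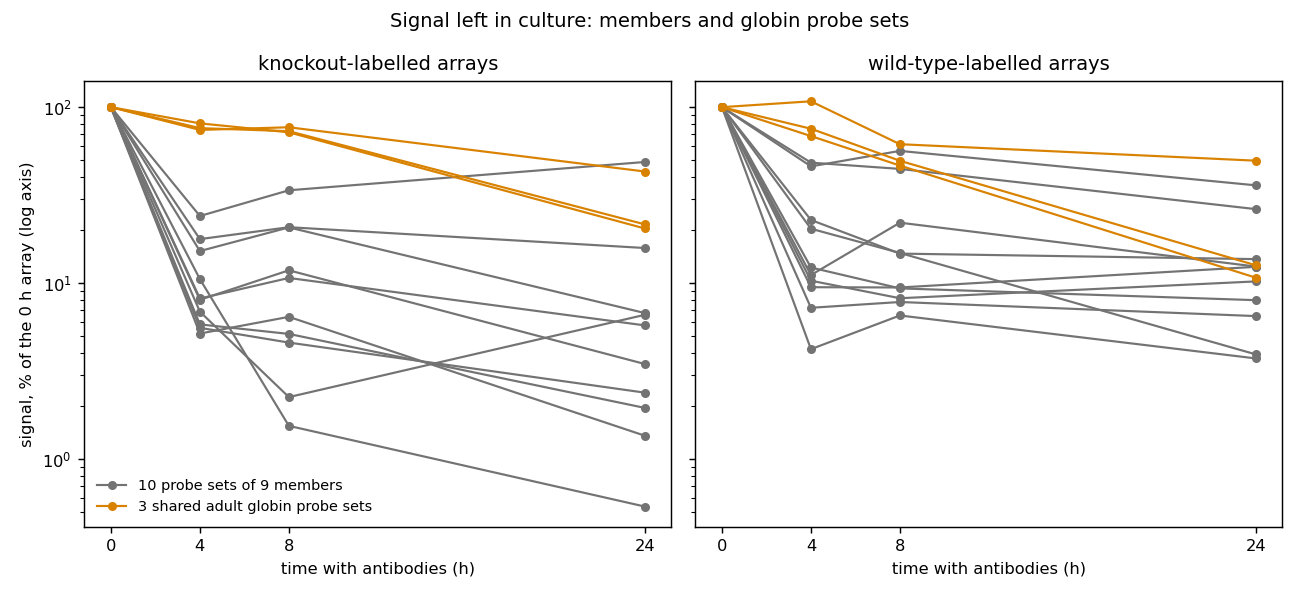
Signal as a percent of the 0 h array of the same genotype (log axis) against time in hours, for the 10 probe sets of 9 members in grey and the 3 bright shared globin probe sets in orange. At 4 h the globin lines lie between 68.5% and 108% and the member lines between 4.22% and 48.4%. Signals were not raised to the floor. Several members, but not the globin probe sets, were chosen for their fall.

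The other genes of the red cell were taken from 8 lists of 123 genes that leave out the members. The lists were chosen with earlier results of these data known, so their contrast with all genes is a description. Of these 107 had a probe set and 85 were tested in limma, with time and genotype in the model and an adjusted p under 0.05 and at least 2-fold as the limit. By 4 h 5 had fallen and 2 had risen. The counts by 8 h were equal, with Bcl11a in place of Gfi1b, and by 24 h 14 had fallen and 1 had risen. Kel and Rhd are among the falls at each time. They were above the floor on the 0 h arrays alone, so they had to differ. Without them 3 fell by 4 h, 3 by 8 h and 12 by 24 h. Pklr is still in these counts at each time, though only 1 later array was above the floor for it. It too passed the filter only through the 0 h arrays. Of all tested genes 0.627% fell and 0.804% rose by 4 h. By 8 h these shares were 1.25% and 1.18%, and by 24 h they were 2.48% and 1.49%. The median change of the 85 lay between -0.64 and -0.63 at the 3 times, beside medians of -0.10, -0.11 and -0.08 over all tested genes. These p-values set the change shared by the genotypes against the gap between their responses. They measure no spread between animals.

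Every fall and rise among these 85 was lost when the 0, 4 or 8 h array of either genotype was left out. Those fits called 0 to 6 of all 8457 genes lower, against 53, 106 and 210 in the full fit at 4, 8 and 24 h. Without the knockout 24 h array 7, 11 and 2 of the 85 fell, and without the wild-type one 7, 11 and 20.

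Red cell membrane genes (13 tested) gave 3 falls at 4 h, 3 at 8 h and 4 at 24 h, Rhd and Kel included each time. Rhd, the Rh blood group protein that pairs with Rhag, gave 909 and 474 at 0 h (knockout, wild type) and 11.3 to 69.3 later. Kel, the Kell blood group peptidase, gave 632.5 and 540 at 0 h and 38.6 to 121 later. All 6 later signals of both were under the floor, and their mean changes of -2.21 and -2.04 are bounds, given with no test. Tspo2, a cholesterol-binding protein of red cell precursors, changed by -1.83 at 4 h (SE 0.30, limma adjusted p = 0.0456). Stom, the membrane protein stomatin, changed by -0.39 in the knockout and -2.12 in wild type at 4 h. It passed at 24 h alone, with -2.82 (limma adjusted p = 0.0296), from 3503 and 1133 at 0 h to 524 and 152.

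Erythroid factors (21 tested) gave 1 fall at 4 h, 1 at 8 h and 7 at 24 h. Gfi1b, a repressor needed for red cells and the paralogue of the deleted Gfi1, went from 1967 to 368, 415 and 125 in the knockout arrays and from 1240 to 219, 434 and 145 in wild type. It fell, with -2.46 at 4 h (SE 0.36, limma adjusted p = 0.0340) and -3.44 at 24 h (limma adjusted p = 0.00955). Tal1, a partner of Gata1, changed by -1.83 at 4 h (limma adjusted p = 0.139) and fell, with -2.56, at 24 h (limma adjusted p = 0.0321). Its relative Lyl1 stood at -2.49 and the Krüppel-like factor Klf3 at -2.46 at 24 h, and both passed (limma adjusted p = 0.0230 and 0.0215). At 24 h 7 of 11 granulocyte precursor, 3 of 5 B cell, 2 of 6 monocyte, 1 of 3 progenitor and 1 of 6 dendritic cell markers tested also fell. None of the 11 T cell markers did, and of all tested genes 2.48% fell. Progenitor markers summed to 5269 at 0 h and 1550 at 24 h in the knockout arrays. In wild type these sums were 3550 and 820.5. The part of such cells in the falls of factors that they share was not tested.

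In the list of erythropoietin signalling 2 genes rose at 4 and 8 h. Cish, an inhibitor induced by STAT5, rose by 3.20 at 4 h (SE 0.34, limma adjusted p = 0.0159), from 483 and 869 to 4493 and 7881. The receptor-bound kinase Jak2 rose by 1.79 (limma adjusted p = 0.0248). Both act downstream of T cell cytokine receptors too, and they rose while Epor was lower. Kit, the stem cell factor receptor, fell, with -2.11, at 24 h (limma adjusted p = 0.0234).

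Of the red cell enzymes (12 tested), the pyruvate kinase Pklr changed by -1.51 at 4 h, from 456 and 358 to signals under the floor. Only 1 later array (155) was above it. Pklr thus passed the filter only through the 0 h arrays, and its change is a bound, given with no test. The glutathione transferase Mgst3 fell, with -2.08 at 24 h (limma adjusted p = 0.0479). None of 11 haem synthesis, 14 iron handling and 4 further carbonic anhydrase genes passed at any time. The haem list had medians between -1.09 and -0.89, with the mitochondrial carriers Slc25a39 at -0.32 and Tmem14c at -0.81 at 4 h. Lower values in it, named after they were seen, were those of the synthesis enzymes Alad (-2.13, limma adjusted p = 0.0785), Cpox (-1.85, limma adjusted p = 0.1003) and Fech (-1.39, limma adjusted p = 0.114). In the iron list the ferritin heavy chain Fth1 stood at 0.56 and the iron chaperone Pcbp1 at 0.05 at 4 h. Car12 and Car9 stood at 0.28 and 0.32.

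**Figure D4:**
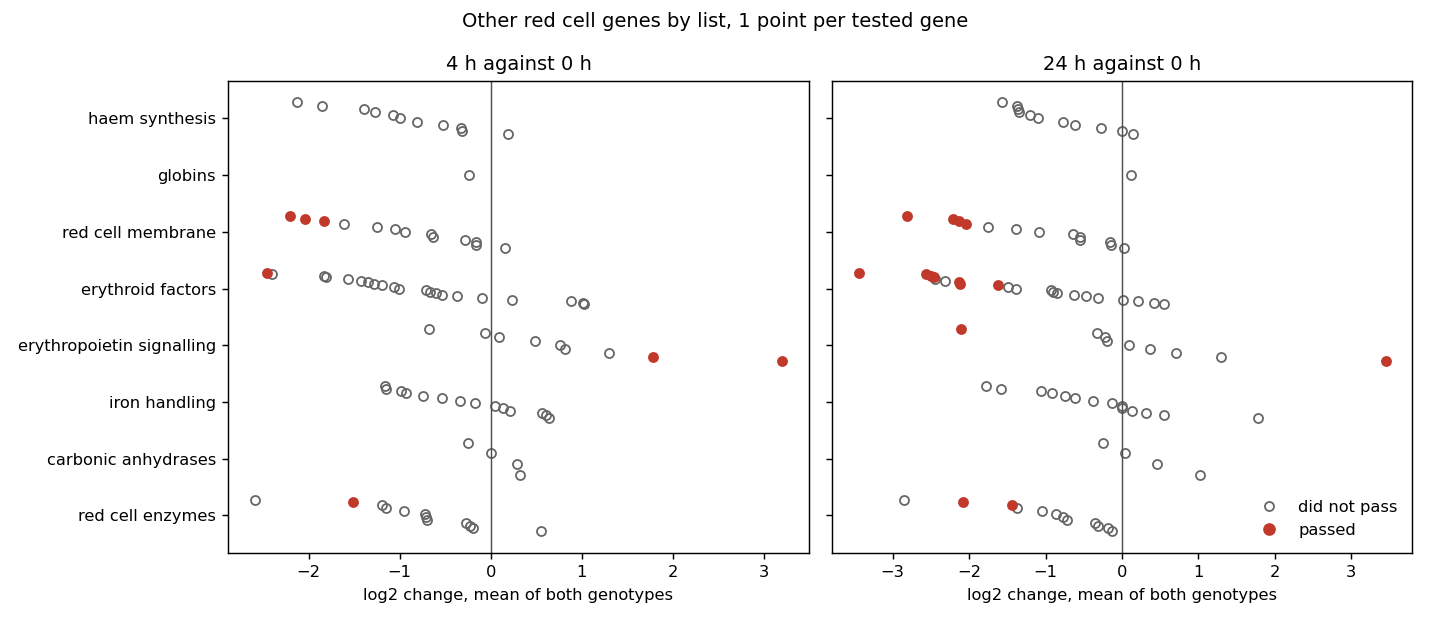
Log2 change from 0 h at 4 h (left) and 24 h (right), as the mean of both genotypes in the limma fit, for the 85 tested genes of the 8 lists, 1 point per gene. Filled points passed the limit, 5 falls and 2 rises at 4 h and 14 and 1 at 24 h, with Kel, Rhd and Pklr among the falls.

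The 10 genes whose pattern was most like the mean of the 9 members had r of 0.97 to 0.99 over the 8 arrays, out of 1650 genes with a log2 range of at least 2. They were Tspan33 (a tetraspanin), Kel, Epdr1, Fcna (the lectin ficolin A), Abcb4 (a phospholipid transporter), Slc38a5 (a glutamine transporter), Aldh1a1 (a retinaldehyde dehydrogenase), Tspo2, Cldn13 (a claudin) and Rhd. Tspan33 gave 1296 and 829 at 0 h and 113 to 156 later. Abcb4 gave 1594 and 1105 at 0 h and 229 to 303 later, and alone among the 10 stayed above the floor throughout. Cldn13 gave 1276 and 696 at 0 h and 9.2 to 173 later. Kel, Epdr1, Fcna, Slc38a5, Aldh1a1 and Rhd were above the floor on the 0 h arrays alone and passed the filter only through them. Cldn13 had 1 later array above the floor (173) and also passed only through the 0 h arrays. A correlation over 8 arrays of which 2 are high is set mainly by those 2, so the likeness is a description only.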

How the data were processed

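RNA of 8 splenic T cell samples was hybridised to 1 Affymetrix array each. The deposited values are linear probe set intensity, and the submitters' processing notes name GCOS 1.4 and MAS5. Their roles are not stated. The 22690 probe sets (64 of them controls) had a 2% trimmed mean of 1000.4 to 1000.5 on every array. A single gene symbol was paired with 20380 probe sets, several with 691 and no symbol with 1555. 0 symbols were updated, and 0 sample columns were left unused.

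Signals under 141.88 were raised to that floor and put on a log2 scale. The 15062 probe sets (8457 genes) that exceeded it on 2 or more arrays were tested in limma 3.58.1 under R 4.3.3 for 4, 8 and 24 h against 0 h, with genotype in the model, a variance trend and Benjamini-Hochberg adjustment over all of them. The fit had 3 residual degrees of freedom, and the number of arrays limits the precision. For each gene the probe set of highest mean signal was used. Genotypes were compared by size. On simulated data with 15062 probe sets the 4 h step found 63% of falls of 1.5 and 100% of falls of 3 on the log2 scale (100 each) and called 12 unchanged probe sets. The changed probe sets had means more than 3 log2 units above the floor, and no floor or genotype difference was simulated. These shares therefore do not cover genes near the floor.

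The members and lists were chosen with earlier results of these data known. Other red cell genes are named as the up to 4 largest changes that passed in a list, or its 2 brightest genes where none passed, and the 10 most similar genes by Pearson r. The alternatives were 2 other scalings, 2 other floors, log2 of signal plus the floor value, the median over probe sets, other fold limits, no filter, no genotype term, no variance trend and leaving out arrays. Promoter sequences are from RefSeq, GRCm38.p6. Tables and figures were made with python 3.11.15, numpy 2.4.6, pandas 2.3.3 and matplotlib 3.10.9.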

Additional observations from a re-analysis of the deposited data

Results flagged for a closer look

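Among the genes of the red cell lists, 6 moved in opposite directions from 0 h in the 2 genotypes by at least 0.5 on the log2 scale, with 1 array behind each value, and these differences were not tested. The share of all tested genes that meet this rule was not counted, so the number is not read as a trait of these lists. Hmox1, the haem-degrading enzyme, changed by 0.63 in the knockout and -1.70 in wild type at 4 h, a gap of 2.33, and had a gap of 3.10 at 24 h, where the knockout change was 2.10. Fth1 changed by 1.27 and -0.58 at 8 h, a gap of 1.85, and had a gap of 1.77 at 24 h. The monocyte marker list summed to 14087 to 52599 in the knockout arrays and 994 to 6724 in the wild-type ones, and its part in these gaps was not tested. Foxo3 had a gap of 1.31 and Slc25a39 one of -1.56 at 24 h, Car12 one of -1.83 at 4 h and Nudt4 one of -1.86 at 8 h.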

How the results depend on the processing

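The count of members at least 2-fold lower than at 0 h in both genotypes stayed at 6 to 9 at each time under every alternative run, and no member's mean change turned its sign. The count of members that differ between genotypes was small and moved. At 0 h it went from 1 to 0 with log2 of signal plus the floor value and to 2 at a 1.5-fold limit. At 4 h it went from 1 to 0 with that scale or the higher floor and to 4 at 1.5-fold. At 8 h it went from 0 to 2 with the lower floor and to 3 at 1.5-fold. At 24 h it went from 1 to 2 with quantile normalization, 3 with arrays scaled to their medians, 4 with the lower floor and 3 at 1.5-fold. The share of all genes that differ was counted at 2-fold in the main setting alone, so these other counts cannot be set against it.

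Of the other red cell genes 5 fell at 4 h, but 3 with quantile normalization or no variance trend, 1 with the lower floor or no filter, and 2 with the higher floor or no genotype term. At 8 h 5 fell, but 2 with the lower and 3 with the higher floor, 1 with no filter, and 8 with log2 of signal plus the floor value, the median over probe sets or no variance trend. At 24 h 14 fell, but 3 with the higher floor, 1 with no filter and 5 with no genotype term. The calls over all genes moved too. By 24 h 210 genes were lower in the main fit, 63 with the higher floor, 10 with no filter and 40 with no genotype term. By 4 h 53 became 26 with the lower floor, 20 with the higher, 7 with no filter and 24 with no genotype term. By 8 h 106 became 74 with the lower floor, 39 with the higher and 6 with no filter. There log2 of signal plus the floor value gave 151, the median over probe sets 133 and no variance trend 108. Of rises among the red cell genes, 2 at 4 h became 0 with no filter and 1 with no genotype term, and 2 at 8 h became 0 with no filter. The 1 rise at 24 h became 2 with arrays scaled to their medians or with log2 of signal plus the floor value and 0 with no filter. Leaving out 1 array gave 0 to 7 falls at 4 h, 0 to 11 at 8 h and 0 to 20 at 24 h, and 0 to 2, 0 to 2 and 0 to 1 rises; a time left with 1 array is assumed to vary like the others. The cause was not tested. The genotype term sets each time against the 0 h array of the same genotype, which carries the same source number, so it serves as the pairing, and the values with no genotype term are those without it. Signals near the floor limit Rhag, Slc40a1, Epor and Alas2 most.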
